A study of Homo sapiens with 5 samples.

Results

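SC79, a small molecule that activates the kinase AKT, was set directly against follicle-stimulating hormone (FSH) in KGN cells, with 1 RNA-seq library on each side and the control left out of the ratio. Of the 5 libraries of the series, 2 entered this comparison. The estimated counts of all transcripts with the same gene name were added up and scaled for library size, and a gene was compared when the higher of the pair of libraries had at least 100 scaled counts. That left 12505 of 35453 gene names. The ratios below are SC79 over FSH, so a positive log2 ratio means a higher level with SC79.

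KGN is 1 established line from a human granulosa cell tumour. Every group, the control included, received androstenedione at 100 nmol/L in charcoal-stripped medium for 24 h; this is the androgen that aromatase converts to oestrogen. The groups were ethanol vehicle (control), FSH at 100 ng/mL, SC79 at 4 µg/mL, forskolin (FSK, an activator of adenylate cyclase) and the phorbol ester PMA (which activates protein kinase C), all dissolved in ethanol. Each library was made from 270 ng of RNA, pooled as 90 ng from each of 3 cultures grown in 3 different weeks, so no value below has a replicate check and no test was made.

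FSH binds a receptor on granulosa cells that raises cAMP, and cAMP activates protein kinase A, which in turn activates transcription factors of the CREB family. FSH signalling in granulosa cells also reaches AKT, a kinase downstream of PI3 kinase that phosphorylates FOXO transcription factors and keeps them out of the nucleus. The comparison asks how the transcripts left by direct AKT activation differ from those left by the hormone.

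The promoters shown first belong to genes of the 4 gene groups that the results turn on. They are RefSeq sequences on GRCh38.p14, each running from 200 to 47 bases before the annotated gene start and holding 0 bases of any GENCODE release 29 exon. Capitals mark the letters searched for, on both strands, in the 250 bases before the start.

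The first is TXNRD1, thioredoxin reductase, at chr12:104215579-104215732 on the plus strand, where capitals mark TGACNNNGC, the core letters of the antioxidant response element bound by NRF2. The second is IFI6, an interferon-induced mitochondrial protein, at chr1:27672239-27672392 on the minus strand, where capitals mark TTTC, any 2 bases and TTTC, the core letters of the interferon-stimulated response element (ISRE). Its 3 matches are all on the reverse of the printed strand.
TXNRD1: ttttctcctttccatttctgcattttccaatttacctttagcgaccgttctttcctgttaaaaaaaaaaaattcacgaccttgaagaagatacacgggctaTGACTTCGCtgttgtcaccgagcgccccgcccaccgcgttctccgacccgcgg
IFI6: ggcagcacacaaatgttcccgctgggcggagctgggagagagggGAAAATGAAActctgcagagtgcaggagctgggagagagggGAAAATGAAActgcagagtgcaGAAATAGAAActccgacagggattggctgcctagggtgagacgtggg

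PDE7B, a phosphodiesterase that degrades cAMP, at chr6:135851501-135851654 on the plus strand, is shown for TGACGTCA, the full cAMP response element. NR4A3, an orphan nuclear receptor, at chr9:99821685-99821838 on the plus strand, is shown for TGACG, the shorter form of that element, which is also contained in the full one; 3 of its 4 matches lie in the stretch shown. MT1X, a metallothionein that binds zinc and other metals, at chr16:56682270-56682423 on the plus strand, is shown for TGCGCNC or TGCACNC, the core letters of the metal response element.
PDE7B: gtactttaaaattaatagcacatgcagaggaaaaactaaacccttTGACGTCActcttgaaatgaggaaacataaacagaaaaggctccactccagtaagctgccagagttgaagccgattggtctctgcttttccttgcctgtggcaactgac
NR4A3: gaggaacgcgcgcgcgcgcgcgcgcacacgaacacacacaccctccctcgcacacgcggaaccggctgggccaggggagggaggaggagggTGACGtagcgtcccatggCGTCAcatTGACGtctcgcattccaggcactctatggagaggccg
MT1X: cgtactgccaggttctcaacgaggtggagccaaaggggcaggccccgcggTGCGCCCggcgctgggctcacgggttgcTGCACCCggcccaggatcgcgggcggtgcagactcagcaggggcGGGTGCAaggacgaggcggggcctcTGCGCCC

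Over the 27305 gene symbols with a RefSeq promoter, taking 1 window for each, TGACNNNGC was found in 11.03% of windows, the ISRE core in 3.07%, TGACGTCA in 1.77%, TGACG in 21.7% and TGCGCNC or TGCACNC in 24.7%. Among compared NRF2 targets, 5 of the 21 with a RefSeq promoter held TGACNNNGC. The 5 were CBR1, GCLM, ME1, PGD and TXNRD1, so the gene printed above is 1 of the minority that held it. Among compared interferon-stimulated genes 18 of 27 held the ISRE core. Among compared cAMP-CREB targets 2 of 29, DUSP1 and PDE7B, held TGACGTCA, and 15 of 29 held TGACG. Of the metallothionein group 3 of 4, MT1X, MT2A and SLC30A1, held a metal response core. These matches describe letters in a window and were not tested as binding sites.

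The SC79 library held 50253128 estimated counts and the FSH library 53529180, and the 5 libraries ranged from 50253128 to 58849719. The 10 most abundant genes took 8.77% and 8.22% of them. The granulosa transcription factor genes FOXL2, GATA4 and NR5A1 were at 10379, 10426 and 5186 scaled counts with SC79, whereas WT1 was at or near 0 in every library and the inhibin gene INHA was at 63.5 with SC79 and 93.8 with FSH. Of markers of other cell types, CD3E and MS4A1 of lymphocytes were at 0, and none of the 10 oocyte markers reached 100 counts. The 10 immune markers summed to 967 scaled counts with FSH and 1204 with SC79, most of it CD68, and the 10 endothelial markers to 507 and 411. The 10 epithelial markers summed to 8691 and 6790 (FSH and SC79; nearly all KRT7 and KRT19), and the 12 theca and stroma markers to 41872 and 41977, with PDGFRA and ACTA2 high and CYP17A1 and INSL3 near 0. In pooled bulk RNA, fewer cells of a kind and less RNA per cell cannot be told apart.

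The libraries were close to each other. Of the 12505 genes, 90.8% lay within 1.2-fold, the median log2 ratio was 0.0003, and 95% of genes lay between -0.38 and 0.33. At least 2-fold higher with SC79 were 24 genes (0.192% of those compared), and at least 2-fold lower were 41 (0.328%). At 1.5-fold the counts were 88 higher (0.704%) and 121 lower (0.968%). On the authors' own scaling, which lowers the median of all genes to -0.12, they were 19 higher and 53 lower at 2-fold, and 49 and 209 at 1.5-fold. Many genes on the high side share sequence with other genes or could not be matched. Only 13 of the 24 had at least 80% of their 31-base words found in no other gene name. On the low side 35 of the 41 did, and of all 12505 genes compared 10726 did.

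**Figure D1:**
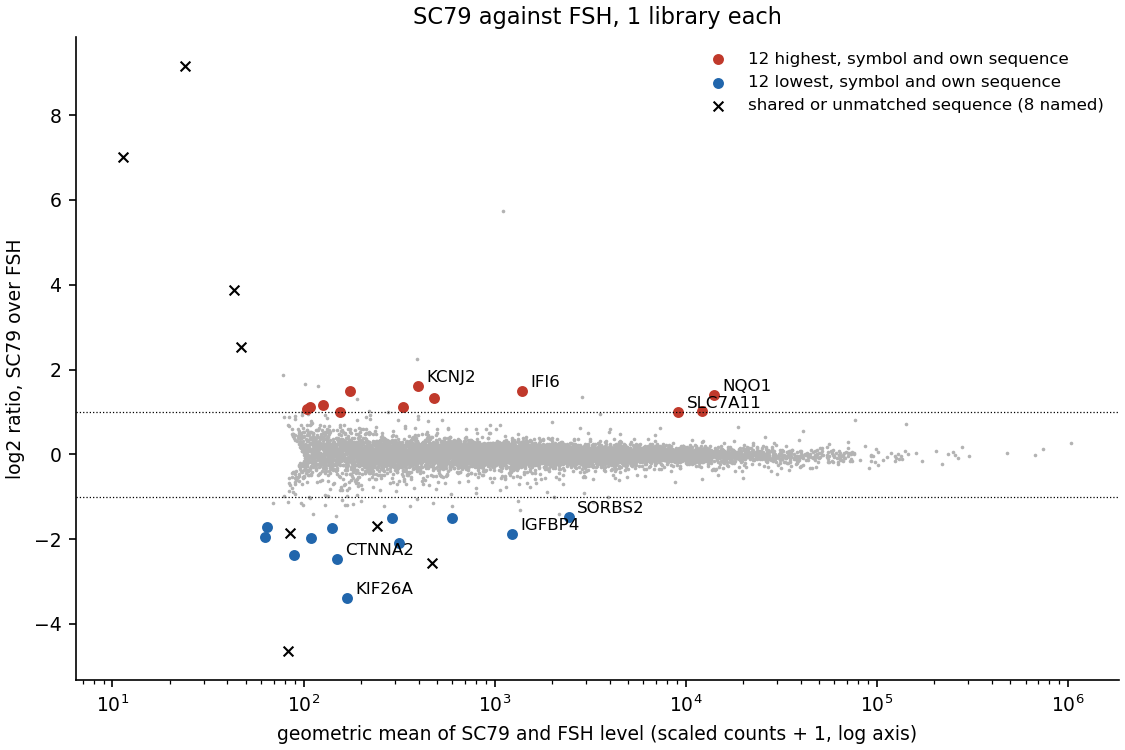
Log2 ratio of SC79 over FSH (vertical axis) against the geometric mean of both levels in scaled counts plus 1 (horizontal log axis), 1 grey point per gene for 12505 genes, with dotted lines at 2-fold. The 12 lowest genes with a symbol and their own sequence reach -3.40 (KIF26A), and the 12 highest reach 1.61 (KCNJ2). Clone-named genes with their own sequence, such as AL356432.3 at 5.74, stay grey. Crosses mark 8 genes with shared or unmatched sequence, some of them clone-named, which hold the highest and the lowest ratio of all genes.

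The genes lower with SC79 than with FSH were led by KIF26A, an atypical kinesin (ENSG00000066735, chromosome 14, 104138723 to 104180894, GRCh38). It had 545 scaled counts with FSH, 50.8 with SC79, 49.5 in control, 3275 with FSK and 39.5 with PMA, a log2 ratio of -3.40, or 10.7-fold higher with FSH [7.98 to 14.7]. Brackets here and below hold exact 95% intervals for counting error alone. The SC79 level was thus next to control and PMA, and FSK stood far above FSH. CTNNA2, an alpha-catenin of cell adhesion, had 353 with FSH, 62.4 with SC79, 69.4 in control, 659 with FSK and 56.1 with PMA, 5.66-fold higher with FSH [4.29 to 7.59].

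IGFBP4, which binds insulin-like growth factors and limits their action (ENSG00000141753, chromosome 17, 40443461 to 40457731), had 2357 scaled counts with FSH, 643 with SC79, 657 in control, 7730 with FSK and 765 with PMA, or 3.66-fold higher with FSH [3.35 to 4.01]. SORBS2, an actin-linked adaptor, had 4057 with FSH, 1461 with SC79, 1552 in control, 9727 with FSK and 2010 with PMA, or 2.78-fold [2.61 to 2.95]. GAS1, a membrane protein of growth arrest and hedgehog signalling, had 1007 with FSH, 358 with SC79, 335 in control, 3396 with FSK and 347 with PMA. In all 3 the SC79 and control levels lay near each other and the FSK level was above that with FSH.

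The other 7 of the 12 lowest were VWA5B2 (a von Willebrand factor domain protein, log2 ratio -2.37), CARNS1 (carnosine synthase, -2.08), UPK3B (a uroplakin, -1.98), GALNT15 (which starts O-linked glycosylation, -1.94), CHGB (chromogranin B of secretory granules, -1.73), ESYT3 (an extended synaptotagmin, -1.72) and PI16 (a peptidase inhibitor, -1.49). With protein-coding transcripts alone ESYT3 was at -0.95, inside the 2-fold line, and CARNS1 at -2.99. GALNT15 had 18.6 scaled counts in control, 31.3 with SC79, 87.8 with PMA, 123 with FSH and 1374 with FSK, so FSK stood far above the others. CHGB was the 1 member of the 12 with its highest level under PMA, at 960 (FSK 685, FSH 255, SC79 76.2, control 92.6).

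Over the 35 own-sequence genes at least 2-fold lower with SC79, the FSK level lay above both SC79 and FSH in 33, or 94.3%, where it did so for 44.6% of all 10726 own-sequence genes compared. The control level was nearer to SC79 than to FSH in 30 of the 35 (85.7%, against 40.5% of all), and PMA lay above both in 10 (28.6%, against 41.6%). These 35 were picked for FSH standing above SC79, with 1 library each. A high FSH value alone thus draws control towards SC79, and the shares of all genes are not a like comparison. Some of the 35, such as KIF26A, passed the minimum of 100 scaled counts through FSH alone. NPTX1, a neuronal pentraxin, was 1 of the 5 with control nearer to FSH: 1932 scaled counts with FSH, 904 with SC79, 2018 in control and 1020 with PMA. ESM1, a proteoglycan secreted by endothelium, was another, at 150 with FSH, 64.5 with SC79, 138 in control and 1687 with PMA; both were chosen after their values were seen.

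**Figure D2:**
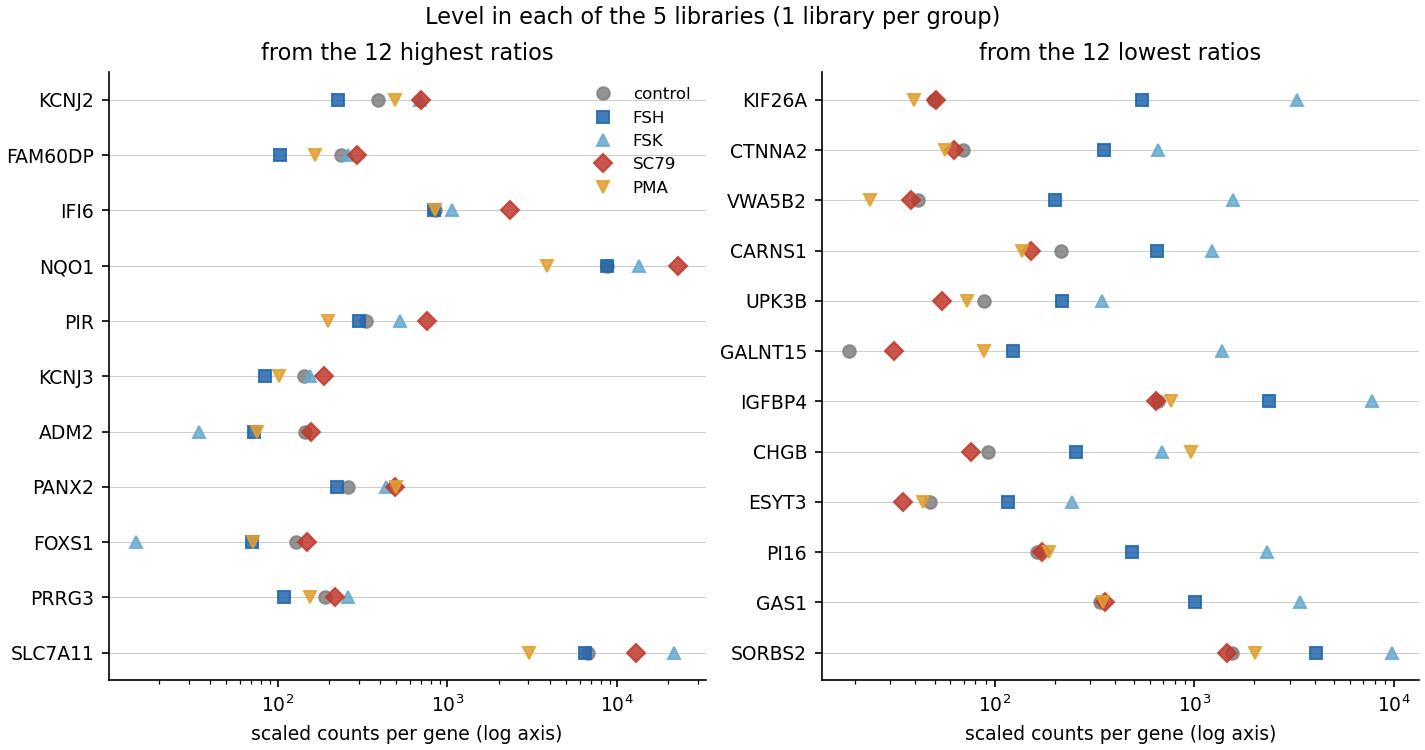
Scaled counts (log axes) in the control, FSH, FSK, SC79 and PMA libraries, 1 point per library, for named genes from the 12 highest ratios of SC79 to FSH (left) and the 12 lowest (right). On the right the SC79 diamond sits by the grey control point for KIF26A, IGFBP4, GAS1 and PI16 while FSH and FSK lie to the right of it. On the left SC79 stands above control, FSH, FSK and PMA for IFI6, NQO1 and PIR.

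The genes higher with SC79 included some with control next to FSH. NQO1, a quinone reductase and a standard NRF2 target (ENSG00000181019, chromosome 16, 69706996 to 69726951), had 22923 scaled counts with SC79, 8705 with FSH, 8657 in control, 13417 with FSK and 3858 with PMA, or 2.63-fold [2.57 to 2.70]. FSH and control were nearly equal here and SC79 was the highest of the 5 libraries. PIR, an iron-binding nuclear protein, had 761 with SC79, 302 with FSH, 333 in control, 526 with FSK and 199 with PMA, or 2.52-fold [2.20 to 2.90].

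SLC7A11, the cystine and glutamate exchanger, had 12900.0 scaled counts with SC79, 6490 with FSH, 6756 in control, 21649 with FSK and 3020 with PMA, or 1.99-fold [1.93 to 2.05]. It lay just outside the 2-fold line, and its highest level was with FSK. IFI6 (ENSG00000126709, chromosome 1, 27666061 to 27672218) had 2342 with SC79, 831 with FSH, 847 in control, 1064 with FSK and 843 with PMA, or 2.82-fold [2.60 to 3.06], with SC79 apart from the other libraries.

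In a second set the control level lay well above FSH and below SC79. KCNJ2, an inward rectifier potassium channel (ENSG00000123700, chromosome 17, 70168673 to 70180048), had 695 scaled counts with SC79, 227 with FSH, 390 in control, 690 with FSK and 492 with PMA, or 3.06-fold [2.62 to 3.57]. FSH was the lowest of the 5 libraries, and SC79 and FSK were close. KCNJ3, a G protein-gated potassium channel, had 188 with SC79, 84.1 with FSH, 143 in control, 154 with FSK and 102 with PMA. ADM2, a peptide of the calcitonin family, had 158, 72.2, 145, 34.6 and 75.6 in the same order, and FOXS1, a forkhead factor, 149, 70.9, 128, 14.6 and 71.2. For ADM2 and FOXS1 control was near SC79 and the FSK level was below that with FSH.

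Also among the 12 highest were PANX2, a pannexin channel protein (log2 ratio 1.12), PRRG3, a membrane protein with a Gla domain (1.00), and FAM60DP, a processed pseudogene (2.85-fold higher). Of the 13 own-sequence genes at least 2-fold higher, control was nearer to FSH in 7 and nearer to SC79 in 6 (46.2%, against 40.5% of all own-sequence genes). The 13 were also picked by their ratio, so the share of all genes is not a like comparison. Some of them, such as KCNJ3, ADM2 and FOXS1, passed the minimum of 100 scaled counts through SC79 alone. At the edge of the 2-fold line, PRRG3 lay inside at 1.00, SLC7A11 and MLLT3 outside at 0.99 and 0.95, TMTC1 and LBH inside at -1.01 each, and GRIA4 and PPFIA4 outside at -0.995 and -0.98.

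Several of the largest ratios belonged to genes that share sequence with others or could not be matched. HSPA6, an inducible heat shock protein, had 0 counts with FSH and 129 with SC79, at least 43.0-fold higher against 3 counts in the FSH library; 43.3% of its words are its own, and control had 1.83, FSK 2.09 and PMA 9.89. Summed with its near copy HSPA7, the SC79 level was 130 and the FSH level 0. AC008393.2 was at 0 with FSH and 570.1 with SC79, or 190.4-fold higher on the same floor, and its interval began at 154.3-fold. Its words could not be matched. SULT1A4, with 2.35% own words, was at 10.3 with FSH and 166 with SC79, and summed with SULT1A3 its log2 ratio was 0.03. AC012184.2 had no words of its own and a log2 ratio of 2.53.

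Above KCNJ2 among own-sequence genes were only clone-named pseudogenes, which the naming rule leaves out and which were chosen after their values were seen. AL356432.3, with 80.1% own words, was at 151 scaled counts with FSH, 8122.5 with SC79, 9621 in control, 8694 with FSK and 4336 with PMA, or 53.9-fold higher with SC79 [45.9 to 63.7]. FSH was thus far below the other libraries there. AL512646.1, with 98.9% own words, was at 56.2 with FSH, 181 with SC79, 91.5 in control, 103 with FSK and 84.8 with PMA, or 3.22-fold [2.38 to 4.46].

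On the low side H3F3AP4, a pseudogene with 0% own words, had a log2 ratio of -4.64 alone and 0.05 summed with H3F3A. AC116533.1 (-2.57) and AC012254.2 (-1.86) likewise had under 5% own words, whereas CA9, a carbonic anhydrase of the hypoxia response, had 67.3% and a ratio of -1.68. SMN1 and SMN2 summed gave -0.03 and EIF3C and EIF3CL 0.09, although SMN1 and EIF3CL alone were past 2-fold.

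NRF2 is the transcription factor of the oxidative stress response. All 29 members compared of its target list were above 0, and the median log2 ratio was 0.37 against 0.0003 over all genes (0.25 on the authors' scaling). At least 1.2-fold higher with SC79 were 19 of 29, where 4.17% of all genes were, and at least 1.5-fold higher 10, where 0.704% were. Lower at those folds were 0, where 5.04% and 0.968% of all genes were. NQO1 and PIR had the largest ratios, and the smallest were HMOX1 (haem oxygenase, 0.05), PRDX1 (a peroxiredoxin, 0.06) and TALDO1 (transaldolase, 0.16). The list was chosen with NQO1 known to differ, so its count is a description.

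Among enzymes of the pentose phosphate pathway, TKT (transketolase) had 23471 scaled counts with SC79 and 15060.3 with FSH, and PGD had 7560.1 and 6559.5. The thioredoxin reductase TXNRD1, whose promoter is printed above, had 49532 with SC79, 34037 with FSH, 34932 in control, 30056 with FSK and 46685 with PMA, or 1.46-fold [1.44 to 1.48]. SC79 and PMA were both high there, whereas for NQO1, PIR, TKT and SLC7A11 PMA was the lowest of the 5.

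For iron storage, the ferritin light chain FTL had 101131 scaled counts with SC79 and 57964 with FSH, and the heavy chain FTH1 had 181253 and 110109. Their own-word shares were 66.8% and 37.0%, since both have many pseudogene copies. Glutathione synthesis was nearer to equal: GCLM, the regulatory subunit of the rate-limiting ligase, and GCLC, its catalytic subunit, were 1.19-fold and 1.17-fold higher. Restricted to the 22 members with their own sequence, the median was 0.34.

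**Figure D3:**
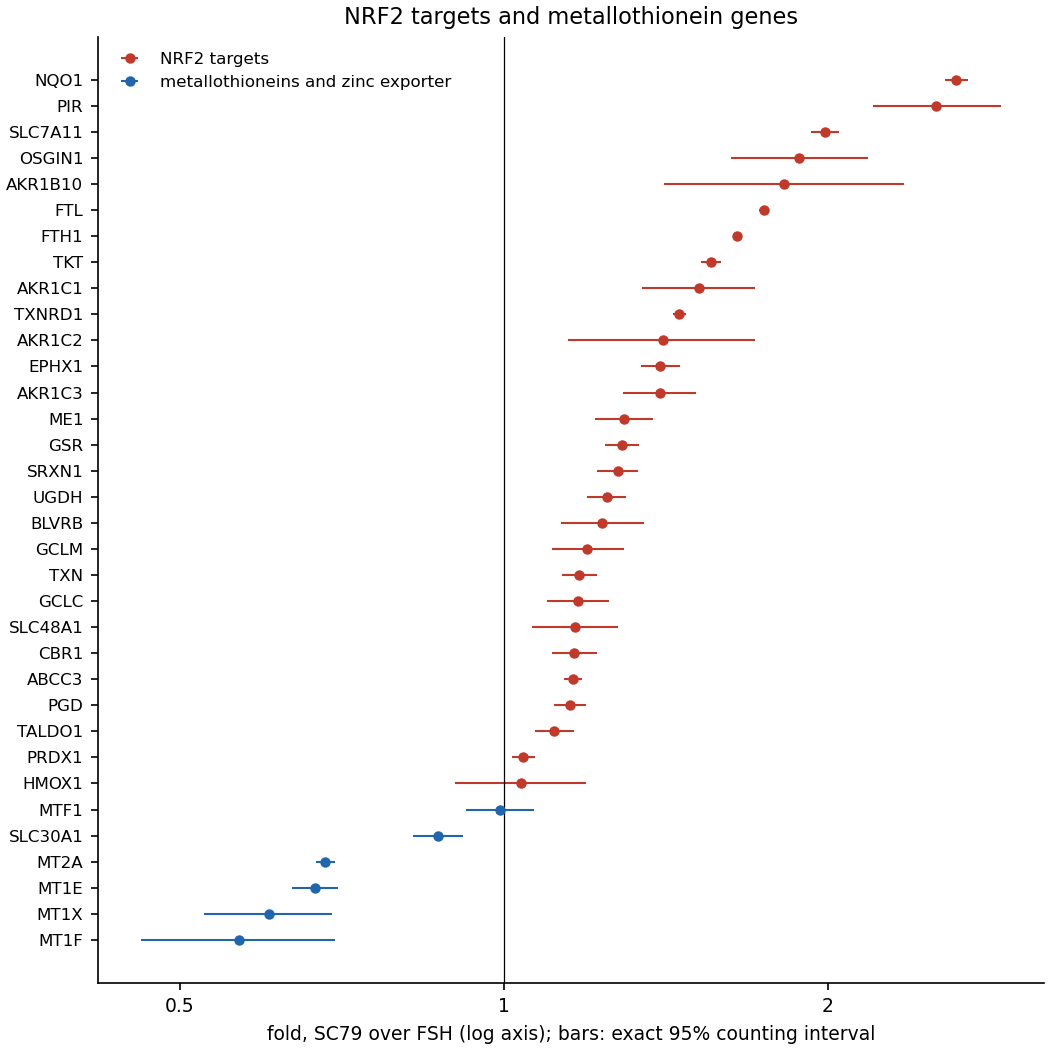
Fold of SC79 over FSH (log axis) for NRF2 targets (red) and the 6 compared genes of the metallothionein and zinc list (blue), with exact 95% counting intervals as bars. NQO1 (2.63-fold) and PIR (2.52-fold) lead, every NRF2 point drawn lies right of 1, and MT1F and MT1X lie lowest among the blue points.

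The metallothioneins lay on the other side. MT2A, the most widely expressed of these metal-binding proteins (ENSG00000125148, chromosome 16, 56608199 to 56609497), had 16414 scaled counts with SC79, 24052 with FSH, 22824 in control, 18492 with FSK and 58184 with PMA, or 0.682-fold [0.669 to 0.696]. MT1X had 352 with SC79, 581 with FSH, 517 in control, 517 with FSK and 585 with PMA, or 0.605-fold [0.527 to 0.693]. SC79 was the lowest of the 5 libraries for both. MT1F (log2 ratio -0.81) and MT1E (-0.58) were also lower with SC79.

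The zinc exporter SLC30A1 was at -0.20 and MTF1, the metal-sensing transcription factor, at -0.01. The 6 genes had a median of -0.57 (-0.69 on the authors' scaling), and 4 were at least 1.2-fold lower, where 5.04% of all genes were. Another 6 listed genes were below 100 counts in both libraries.

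Interferon-stimulated genes were mostly above 0 as well, 32 of 36, with a median of 0.20 (0.09 on the authors' scaling). At least 1.2-fold higher were 15 and at least 1.5-fold higher 6, where 4.17% and 0.704% of all genes were. Lower at those folds were 0, where 5.04% and 0.968% of all genes were. After IFI6 came IFI44L, at 698 scaled counts with SC79, 400.3 with FSH, 383 in control, 354 with FSK and 324 with PMA, and OAS1, a sensor of double-stranded RNA, at 143 with SC79, 81.9 with FSH, 75.2 in control, 105 with FSK and 91.1 with PMA. MX1, an antiviral GTPase, was at 709 and 460.0 (SC79 and FSH). SC79 was the highest of the 5 libraries for IFI6, IFI44L, OAS1 and MX1.

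The smallest ratios of that list were DTX3L (-0.08), IFITM2 (-0.04) and DDX58 (-0.04), the last being the RNA sensor RIG-I. The transcription factor STAT2 was at 0.09 and IRF9 at 0.33. MHC class I genes, which interferon also induces, were on the opposite side, with 16 of 19 below 0. Their median was -0.17 (-0.29 on the authors' scaling), and 4 were at least 1.2-fold lower, where 5.04% of all genes were. They were led by HLA-F (-0.67) and HLA-E (-0.34), and B2M, the light chain, was at 92631 scaled counts with SC79, 110297 with FSH and 109775 in control. Highest of the 19 were PSMB10 (0.07), ERAP2 (0.03) and PSME2 (0.01). HLA genes share sequence with each other.

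**Figure D4:**
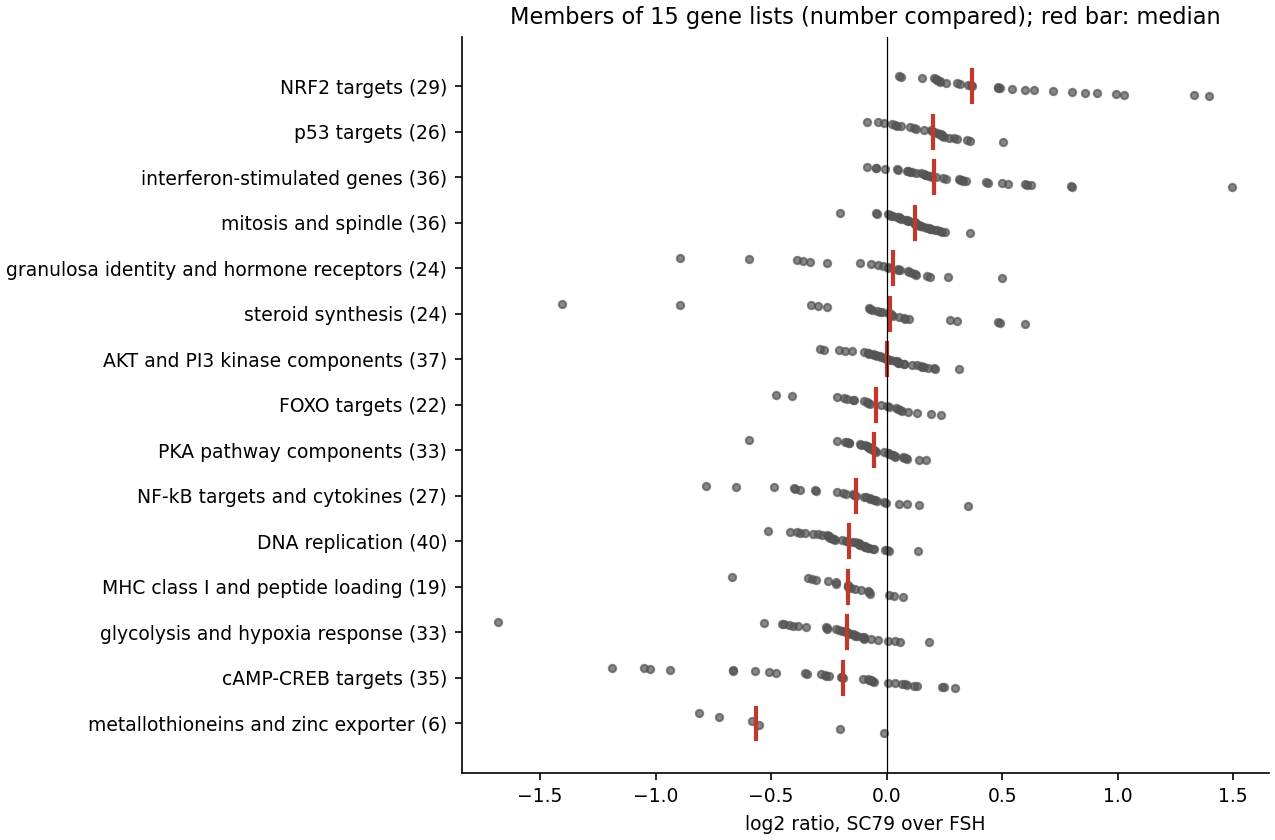
Log2 ratio of SC79 over FSH for each compared member (grey points) of 15 gene lists, the number of members in brackets and the list median as a red bar. The medians run from 0.37 for NRF2 targets to -0.57 for the metallothionein list, with AKT and PI3 kinase components at 0.00.

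The cAMP-CREB targets lay below 0 as a group, 25 of 35, with a median of -0.19 (-0.31 on the authors' scaling). At least 1.2-fold lower with SC79 were 14 of the 35 and at least 1.5-fold lower 6, where 5.04% and 0.968% of all genes were. At least 1.2-fold higher was 1, where 4.17% of all genes were. This list too was chosen with earlier results of these data known, so its counts are a description. PDE4B, a phosphodiesterase that degrades cAMP (ENSG00000184588, chromosome 1, 65792514 to 66374579), had 111 scaled counts with SC79, 255 with FSH, 111 in control, 907 with FSK and 237 with PMA, or 2.29-fold higher with FSH [1.82 to 2.90]. SC79 and control were nearly equal. STC1, the secreted glycoprotein stanniocalcin, had 271 with SC79, 562 with FSH, 277 in control, 6297 with FSK and 20098 with PMA.

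NR4A3 had 75.1 scaled counts with SC79, 154 with FSH, 61.4 in control, 877 with FSK and 166 with PMA, or 2.05-fold higher with FSH [1.54 to 2.75]. PDE7B had 426 with SC79, 817 with FSH, 372 in control, 6598 with FSK and 1149 with PMA. For PDE4B, STC1, NR4A3 and PDE7B the SC79 level was near control, FSH lay above it, and FSK was further above. The highest ratios of the list were PDE4A (0.30), NFIL3 (0.25) and BTG2 (0.24). The 33 PKA pathway components had a median of -0.05 (-0.17 on that scaling). Only 1 of them, FSHR, was at least 1.5-fold lower, where 0.968% of all genes were. It was at -0.60, or -0.54 with a pseudocount of 10.

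For steroid synthesis the list as a whole lay near 0 while 2 of its key genes were lower with SC79. STAR, which carries cholesterol into mitochondria, had 1333 scaled counts with SC79, 3531 with FSH, 1010.5 in control, 10078 with FSK and 5377 with PMA, or 2.65-fold higher with FSH [2.48 to 2.83]. CYP19A1, the aromatase that makes oestrogens (ENSG00000137869, chromosome 15, 51208057 to 51338610), had 1382 with SC79, 2565 with FSH, 901 in control, 27409 with FSK and 1688 with PMA, or 1.86-fold higher with FSH [1.74 to 1.99]. For both, SC79 lay between control and FSH.

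CYP11A1, which cleaves the cholesterol side chain, differed less, with 969 scaled counts with SC79, 1191 with FSH, 825 in control, 12434 with FSK and 670 with PMA, or 1.23-fold [1.13 to 1.34]. HSD3B7 was at -0.33. Highest were AKR1C1 (0.60), AKR1C2 (0.49) and AKR1C3 (0.48), aldo-keto reductases that are also in the NRF2 list; AKR1C1 and AKR1C2 have 64.3% and 51.8% own words. Over 24 compared genes the median was 0.01, with 13 above 0, and it was -0.11 on the authors' scaling.

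Among granulosa identity and hormone receptor genes, 24 were compared, with a median of 0.03 that became -0.11 on the authors' scaling. The receptor FSHR had 73.0 scaled counts with SC79, 111 with FSH, 92.6 in control, 132 with FSK and 36.6 with PMA, or 1.52-fold higher with FSH [1.11 to 2.08]. Its leading transcript, 97.1% of the gene with SC79 and 66.6% with FSH, was at 70.9 and 73.8, and with a pseudocount of 10 the gene's log2 ratio was -0.54, inside the 1.5-fold line. After CYP19A1 and FSHR the lowest was FST, follistatin, at -0.39, and INHBA, the activin beta A subunit, was at -0.33. The highest were BMPR1B, a BMP receptor (0.50), ESR1, oestrogen receptor alpha (0.27), and FOXL2 (0.19).

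Transcripts of the AKT pathway itself lay close to equal, as did most genes compared. The 37 AKT and PI3 kinase components had a median of 0.001 (-0.12 on the authors' scaling), with 19 above 0. At least 1.2-fold higher was 1 and as far lower 2, where 4.17% and 5.04% of all genes were. At least 1.5-fold higher or lower were 0, where 0.704% and 0.968% of all genes were. The largest ratios were TRIB3, a pseudokinase that binds AKT (0.31), EIF4EBP1, a translation repressor (0.21), and MLST8, an mTOR subunit (0.21). The smallest were the AKT phosphatase PHLPP2 (-0.29), FOXO1 (-0.27) and PHLPP1 (-0.21). FOXO1 had 679 scaled counts with SC79, 821 with FSH, 659 in control and 2605 with FSK, so SC79 was next to control.

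The FOXO targets had a median of -0.05 over 22 genes (-0.17 on the authors' scaling), with 10 above 0. At least 1.2-fold lower were 2 of the 22, where 5.04% of all genes were, too few to describe the list. These were PDK4, a kinase that shuts pyruvate out of oxidation (-0.48), and KLF9, a zinc finger factor (-0.41). Both were near control with SC79: PDK4 had 212 scaled counts with SC79, 296 with FSH and 215 in control, and KLF9 had 572, 759.7 and 521. TXNIP followed at -0.21, and GADD45A (0.24), SESN1 (0.19) and IRS2 (0.13) were highest.

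Genes of cell division lay on different sides of 0 by phase, mostly by small amounts. Of 36 mitosis and spindle genes 33 were above 0, with a median of 0.12, which became 0.004 on the authors' scaling. Only 1 of the 36 was at least 1.2-fold higher, where 4.17% of all genes were. Of 40 DNA replication genes 37 were below 0, with a median of -0.16 (-0.28 on that scaling). At least 1.2-fold lower were 8 of the 40, where 5.04% of all genes were. The kinases BUB1 (0.36) and PLK1 (0.25) and cyclin B1, CCNB1 (0.24), led the first list, and MYBL2 (-0.20), PRC1 (-0.04) and ANLN (-0.04) ended it. CCNE2, cyclin E2 (-0.51), CDC6, a licensing factor (-0.42), and MCM10 (-0.39) were lowest of the replication genes, and PRIM1 (0.13), LIG1 (0.01) and TYMS (0.002) were highest.

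BUB1 had 3588 scaled counts with SC79, 2794 with FSH, 3589 in control, 1167 with FSK and 1004 with PMA. CDC6 had 1035 with SC79, 1383 with FSH, 1454 in control, 345 with FSK and 1177 with PMA. SC79 was thus level with control for BUB1 and FSH nearer to control for CDC6. Summed over the lists, mitosis genes stood at 127651 with FSH, 136574.5 with SC79 and 155946 in control, and replication genes at 90507, 81159.9 and 97756.

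**Figure D5:**
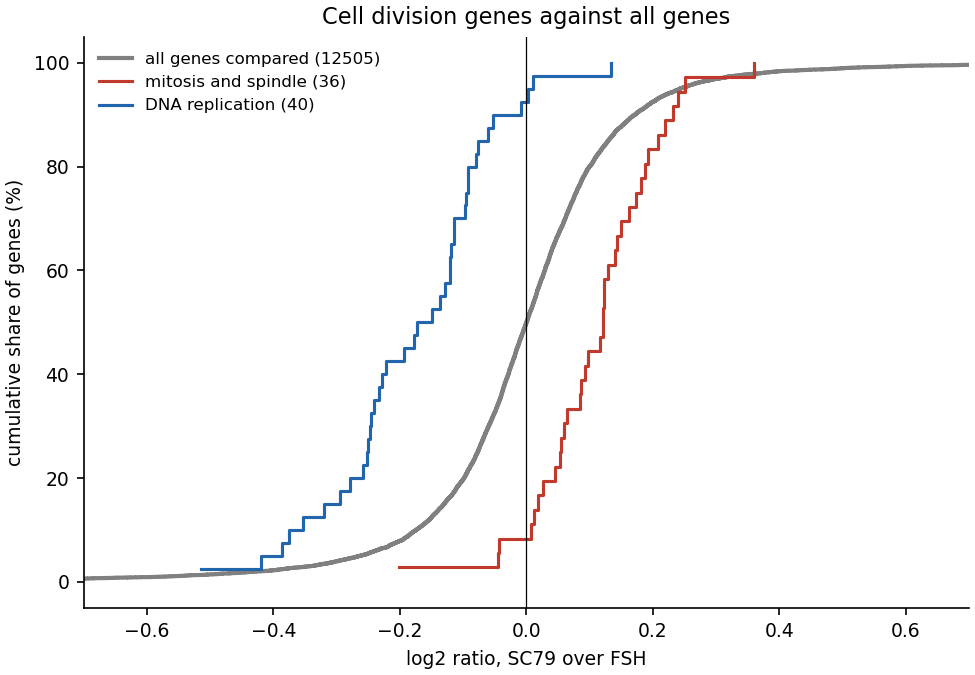
Cumulative share of genes (vertical axis, percent) by log2 ratio of SC79 over FSH (horizontal axis, drawn from -0.7 to 0.7) for all 12505 genes (grey), 36 mitosis and spindle genes (red) and 40 DNA replication genes (blue). The red curve lies to the right of the grey one over most of its length, with a median of 0.12, and the blue curve to the left, with a median of -0.16.

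Glycolysis and hypoxia response genes were mostly below 0, 29 of 33, with a median of -0.17 (-0.29 on the authors' scaling). At least 1.2-fold lower were 9, where 5.04% of all genes were. CA9 alone was at least 1.5-fold lower, where 0.968% of all genes were. After CA9 came BNIP3, a mitophagy receptor (-0.53), and LDHA, lactate dehydrogenase A (-0.45). LDHA had 25696 scaled counts with SC79, 35210.2 with FSH, 32782 in control, 42464 with FSK and 41053 with PMA, with SC79 the lowest of the 5. The highest were ANGPTL4 (0.18), HK2 (0.06) and PKM (0.04).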

How the data were processed

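Polyadenylated RNA from 5 groups, 1 paired-end library each, was sequenced by the authors; whether strand was kept is not stated. Per the submitters' processing notes the tools were Trimmomatic, kallisto and edgeR; their versions, the genome build and the index of transcripts were not given in the sources used here. The authors deposited estimated counts per transcript (179973 transcripts), per the file headers. A normalized signal, deposited by the authors as well, was each library's estimated counts times 1 constant and served as an alternative. The authors' comparisons with control were not used.

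Estimated counts were summed per gene name over 35453 names, and 303 transcripts with no name (at most 0.0680% of a library) were left out. Sums were scaled by TMM over the 5 libraries (edgeR 4.0.16, R 4.3.3), with sums rounded to whole numbers. Before taking log2, 1 scaled count was added to each level as a pseudocount. Intervals are exact conditional binomial (Clopper-Pearson) 95% intervals; reads are not independent molecules, so they cover counting error only. A count of 0 was bounded at 3 counts in that library. Own-sequence shares are the 31-base words of a gene's GENCODE release 29 transcripts found under no other gene name; 89.8% of transcripts matched that release by identifier and version, and coordinates come from it.

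Named genes were 12 at each end of the ratios, among genes that have a symbol and at least 80% own words, the 4 highest and 4 lowest failing that rule, the 3 highest and 3 lowest of each list described, and NQO1, IFI6, STAR, CYP19A1, CYP11A1, NR4A3, PDE4B and FSHR; some genes that meet this rule are not reported here. The genes, the 33 lists and the folds of 2 and 1.5 were chosen with earlier results of these data known; the 1.2-fold counts and the sums of gene copies were added after seeing the data. The calculation was tested on simulated counts with counting error alone and changes larger than 2-fold. That check covers the arithmetic and cannot speak to spread between cultures, shared sequence or genes near the minimum. Other calculations ran under Python 3.11.15 (scipy 1.17.1, pandas 2.3.3, numpy 2.4.6) and figures were made with matplotlib 3.10.9.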

Additional observations from a re-analysis of the deposited data

How the results depend on the processing

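With 1 pooled library per group, the spread between cultures is unknown, and differences of the size of most list medians could lie within it. No paired analysis was possible because each group has 1 library, and no replicate could be left out. Under DESeq2 size factors, total counts and a pseudocount of 10, the counts of genes stayed within 1.5 times, and the medians of the lists in the report moved by at most 0.012, 0.008 and 0.002; the AKT median, at 0.001, crossed 0 under the first. The median of all genes was -0.011 and 0.008 under the first 2 settings, and the authors' deposited normalized values moved it furthest, to -0.12 over 12463 genes. On that scale the 1.5-fold counts were 49 (higher) and 209 (lower), against 88 and 121, so 19.0% and not 42.1% of those past 1.5-fold were higher. Medians there were 0.25 for NRF2 targets, -0.29 for MHC class I, -0.69 for metallothioneins, -0.11 for steroid synthesis, -0.11 for granulosa identity, -0.12 for AKT components, -0.17 for FOXO targets, -0.29 for glycolysis, 0.004 for mitosis and -0.28 for DNA replication. Those for steroid synthesis, granulosa identity and AKT components thereby changed sign, as did cholesterol uptake (-0.044), TGF-beta and BMP response (-0.057), unfolded protein and ATF4 stress (-0.052), proteasome (-0.088) and theca and stroma markers (-0.055). The minimum level set the counts. At 20 scaled counts, with 14787 genes compared, the 2-fold counts became 108 higher and 126 lower (382 and 396 at 1.5-fold). At 500, with 9951 genes compared, they were 9 and 16 (31 and 44). Genes with at least 80% own words gave 13 higher at 2-fold and 43 at 1.5-fold. Over single transcripts, with 30070 compared, the 2-fold counts were 1207 higher and 1066 lower. H3F3AP4 changed sign, to 0.05, when summed with H3F3A. Leaving out the sums of gene copies, 186 values of 38 named genes were taken under other scalings, the larger pseudocount and protein-coding transcripts alone. Of these, 0 changed sign. Most of the 38 were picked for large ratios, so this count could hardly have come out otherwise and is no support. CARNS1 moved to -2.99 and ESYT3 to -0.95 with protein-coding transcripts alone, and HSPA6 to 3.80 with a pseudocount of 10.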

Other observations

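Other gene groups were compared in the same way. All 26 listed p53 targets were compared, 23 were above 0 and the median was 0.20 (0.08 on the authors' scaling). At least 1.2-fold higher with SC79 were 6 and as far lower 0, where 4.17% and 5.04% of all genes were. SPATA18, a mitochondrial quality factor, had 1117 scaled counts with SC79, 789 with FSH, 981 in control, 689.5 with FSK and 343 with PMA. TP53I3 (0.36) and GDF15 (0.35) followed, and CDKN1A, the cell cycle inhibitor p21, was at 31802 with SC79, 26393 with FSH and 25479 in control. TNFRSF10B (-0.09), PPM1D (-0.04) and FAS (-0.01) were lowest.

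Among 35 unfolded protein and ATF4 stress genes the median was 0.07 (-0.05 on the authors' scaling). At least 1.2-fold above FSH lay 6 and as far below 1, where 4.17% and 5.04% of all genes did. The 6 were SLC7A11, CHAC1, PSAT1, SLC3A2 (the partner chain of SLC7A11, 0.45), ASNS (asparagine synthetase, 0.39) and TRIB3. After SLC7A11 came CHAC1, which degrades glutathione (587 scaled counts with SC79, 340.4 with FSH, 451 in control, 157 with FSK, 397 with PMA), and PSAT1, of serine synthesis (4905, 3259, 4449, 1058 and 1812). For both, FSH lay below control. The chaperone HSPA5 was at -0.03, and VLDLR (-0.45), HSP90B1 (-0.13) and DNAJC3 (-0.12) were lowest.

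In the IGF system 3 of 17 genes, IGFBP4, STC1 and IGFBP3 (-0.61), were at least 1.5-fold lower with SC79, where 0.968% of all genes were. The median was -0.04. IGFBP5 had 201280.4 scaled counts with SC79, 236735 with FSH, 210329 in control and 555181 with FSK. Highest were IGF2BP3 (0.27), IRS2 (0.13) and IGFBP6 (0.03). Of 27 NF-kB targets and cytokines 8 were at least 1.2-fold lower and 1 higher, where 5.04% and 4.17% of all genes were. Their median was -0.13. IL11 had 869.9 scaled counts with SC79, 1496 with FSH, 1095 in control, 21866 with FSK and 9703 with PMA, and IL1B (-0.65) and TNFRSF9 (-0.49) were next. TNFAIP2 (0.35), NFKBIB (0.14) and NFKB1 (0.09) were highest. Among 11 EGF-like and cumulus expansion genes the median was -0.12, and HBEGF, an EGF receptor ligand, was lowest, at 175 with SC79, 300.5 with FSH and 308 in control.

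Of 23 cytosolic heat shock genes 1, HSPA6, was at least 1.5-fold higher with SC79, where 0.704% of all genes were. The median was -0.07. HSPA1A and HSPA1B summed gave 0.16, and HSPB1, a small heat shock protein, was at 0.29. Medians of the other lists were 0.08 for cholesterol uptake and storage (-0.04 on the authors' scaling), -0.03 for sterol and fatty acid synthesis, 0.06 for TGF-beta and BMP response (-0.06), -0.05 for ERK feedback and AP-1, -0.06 for extracellular matrix, 0.03 for proteasome subunits (-0.09), -0.02 for aryl hydrocarbon receptor targets and -0.04 for reference genes. In the aryl hydrocarbon receptor list NQO1 was high while CYP1B1 was at -0.02 and TIPARP at -0.02.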
